A study of Mus musculus with 5 samples.

Results

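The Zfp36 family of mRNA decay factors was examined in myeloid progenitors with and without a truncating deletion in Bcor. Its 4 mouse genes, Zfp36, Zfp36l1, Zfp36l2 and Zfp36l3, were found by gene identifier among the 52550 genes of the count table, and 3 of them had enough counts to be tested among 11766 genes. Gene expression had been measured by 3′ RNA sequencing (QuantSeq), which reads the end of each polyadenylated transcript, in KL (Lin-cKit+Sca1-) cells sorted from bone marrow. Per the labels, the BcorΔE9-10 group (scl-Cre-ERT +; Bcorfl/y; n = 3 libraries) and the BcorWT group (scl-Cre-ERT +; Bcorwt/y; n = 2 libraries) had male genotypes, with 1 copy of the X-linked Bcor gene, and both carried the Cre transgene. The study describes its controls as littermates with either the floxed allele or the Cre, so the control genotype given here is that of the labels. Both groups were injected with tamoxifen, 1 mg daily over 5 days at an age of 3 to 6 months, and cells were taken at 20 weeks. The Cre is driven in haematopoietic stem cells, so progenitors carry the deletion by descent from recombined stem cells. Loss of exons 9 and 10 shifts the reading frame and leaves a shortened Bcor protein.

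Zfp36 proteins bind AU-rich elements in the 3′ untranslated region (3′ UTR) of mRNAs through paired zinc fingers and bring in the enzymes that shorten the poly(A) tail, after which the mRNA is degraded. Zfp36, also called tristetraprolin, is itself an immediate-early gene, and mice without it develop inflammation driven by the cytokine Tnf together with an excess of myeloid cells. Zfp36l1 and Zfp36l2 act in lymphoid development, and Zfp36l2 is needed for the maintenance of haematopoietic stem cells, whereas Zfp36l3 is a rodent gene known from the placenta. The proteins are held in check by phosphorylation, chiefly by the kinase Mapkapk2, and they act on their own mRNAs too.

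The recognition sequence of the family was searched for in the members themselves. The heptamer UAUUUAU, searched on the sense strand of the longest annotated 3′ UTR, occurred 3 times in each of Zfp36, Zfp36l1 and Zfp36l2, and 1 of the 3 lay in each gene within the nonamer UUAUUUAUU. The 3′ UTRs were 774, 1835 and 1822 bases long, and the 20 bases of that of Zfp36l3 held no match. By comparison, 3 or more heptamers were found in 386 of 10033 tested genes with an annotated 3′ UTR (3.85%), and 1 or more in 2999 (29.9%). The 3 sites of Zfp36 and the nonamer sites of Zfp36l1 and Zfp36l2 are given here because they are the letters the proteins read. Each is written 5′ to 3′ on the minus strand of mm10, with the heptamer in capitals.
Zfp36, chr7:28376966-28376994, 3′ UTR: agtgggcccttTATTTATgacgactttat
Zfp36, chr7:28376951-28376979, 3′ UTR, nonamer: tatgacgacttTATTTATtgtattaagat
Zfp36, chr7:28376926-28376954, 3′ UTR: agattttatagTATTTATatatattgggt
Zfp36l1, chr12:80108167-80108195, 3′ UTR, nonamer: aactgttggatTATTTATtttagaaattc
Zfp36l2, chr17:84184914-84184942, 3′ UTR, nonamer: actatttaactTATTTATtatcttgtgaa

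The Zfp36 sites were clustered, with heptamers at bases 575, 590 and 615 of the 3′ UTR. They ended 153 to 193 bases before the end of the transcript, which is the part of the mRNA that the 3′ reads cover. In Zfp36l1 the sites began at bases 1150, 1191 and 1405, and in Zfp36l2 at bases 822, 870 and 1056. A match shows that the letters are present, and neither binding nor decay was measured.

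The promoters were searched in the same way, over the 250 bases before the start in the RefSeq sequences of build GRCm38.p6, on both strands (the TATA box on the sense strand alone). Entries were found for 3 members, and Zfp36l2 had none. The Zfp36 window held the serum response element known as the CArG box, which is bound by serum response factor and was found in 1.467% of 32851 promoters. It also held an Egr site (GCGGGGGCG), found in 2.572%. These are the elements through which immediate-early genes are known to be switched on, and both are shown on the minus strand with the motif in capitals. They did not overlap. Both lie inside the span of the counted gene (chr7:28376784-28380253), as the RefSeq start used here is not the start of that span. Binding at these sites was not measured.
Zfp36, chr7:28379267-28379296, CArG box: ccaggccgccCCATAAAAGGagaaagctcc
Zfp36, chr7:28379314-28379343, Egr site: gagctacgccGCGGGGGCGcgtcccggaag

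Neither motif was found in the windows of Zfp36l1 and Zfp36l3. The Zfp36l1 window held a TATA box (TATAAA, in 7.592% of promoters) and an AP-1 site (TGANTCA, in 6.749%), and no window of the family held the cAMP response element TGACGTCA (in 1.546%).

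The libraries held 5998924 to 8303999 counts. Counts of Bcor itself were 168 to 196 with the deletion and 83 to 109 without it, but these reads come from the 3′ end of the gene and do not check the deletion of exons 9 and 10. The KL progenitor markers Kit, Mpo, Elane, Prtn3, Ctsg, Cebpa, Cd34 and Myb were detected in every library, and the Sca-1 gene Ly6a had 3 to 8 counts per library. Of the lineage antigens removed in the sort, Cd5 had at most 4 counts per library, whereas Itgam and Ly6g had 651 to 1132 and 1272 to 4012. Ly6g was called lower in BcorΔE9-10 cells (means of 219 and 445 CPM, log2 fold change -0.97, limma adjusted p = 0.00204). Itgam went the other way without a call (means of 124 and 96.4 CPM, log2 fold change 0.37, limma adjusted p = 0.0618). The T-cell gene Cd3e had at most 3 counts. Marker levels differed between the groups. The summed level of 10 mature neutrophil genes was 149639.7 to 173550.0 CPM (counts per 1000000 counts of the scaled library) in BcorΔE9-10 libraries and 216249.6 to 228655 in BcorWT libraries, with 6 of the 10 called lower and none at 0. Most of this sum was S100a8 (means of 74648 and 113560 CPM) and S100a9 (41934 and 55438 CPM), both called lower. Camp went the other way without a call (means of 24926 and 21132 CPM, log2 fold change 0.25). Basophil, mast cell and eosinophil genes were at 402 to 573 against 1021 to 1310 CPM, with 6 of 8 tested genes called lower. Monocyte and macrophage genes were at 5404 to 6326 against 8344 to 8607 CPM, with 2 of 9 called lower. Lymphoid genes were at 447 to 485 against 554 to 677 CPM, with 1 of 5 called lower and Ms4a1 at 0 in every library, but nearly all of this sum was Cd52, the gene called (means of 454 and 608 CPM). The B-cell genes Ebf1 and Pax5 had log2 fold changes of 1.74 and 2.27 at 1 to 17 counts and were not called (limma adjusted p = 0.315 and 0.130). Erythroid and megakaryocyte genes were at 80.6 to 175 against 52.5 to 58.8 CPM, with 1 of 6 called higher. Among the progenitor genes, Kit and Myb were called higher. Of all genes tested, 4.09% were called lower and 6.02% higher. In sorted bulk cells a change in the share of a cell type and a change in the RNA of each cell cannot be told apart, and the part of these markers in the results on the family was not tested.

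Zfp36l2 was the most abundant member in every library, followed by Zfp36, with Zfp36l1 far below them and Zfp36l3 without a count. Averaged over log2 CPM, Zfp36l2 ranked 784 and Zfp36 ranked 1358 among the 11766 genes tested, so that 93.3% and 88.5% of genes lay below them, while Zfp36l1 ranked 9969. Per kilobase of exon, the mean levels in BcorWT cells were 46.1 CPM for Zfp36l2, 23.3 for Zfp36 and 0.435 for Zfp36l1. The same order held in BcorΔE9-10 cells, at 57.6, 35.9 and 1.51 CPM per kilobase. Because a 3′ count does not grow with transcript length, the order was also read from the counts themselves, and it was the same. Neighbours in this order did not overlap within either group.

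Zfp36 (ENSMUSG00000044786, mm10 chr7:28376784-28380253, minus strand) was higher in BcorΔE9-10 cells. The BcorΔE9-10 libraries held 1126, 803 and 940 counts of it, and the controls 693 and 426. Scaled to library size, these were 133, 131 and 109.9 CPM against 98.4 and 63.1 CPM. The lowest BcorΔE9-10 library thus stood 1.12 times above the higher BcorWT library, and the BcorWT libraries lay further apart than any pair of BcorΔE9-10 libraries. The means were 125 ± 12.9 CPM (SD, n = 3) and 80.8 ± 25.0 CPM (SD, n = 2). The log2 fold change was 0.65 (SE 0.16, 95% interval 0.30 to 1.00), which passed the threshold with a limma adjusted p of 0.0189. This gene was among those that the study singled out from the same libraries, so its call is not independent evidence of its direction. The call rested on the choice of libraries: without BcorWT replicate 2, the lower control, the log2 fold change was 0.33 with a limma adjusted p of 0.192. It was also lost without BcorΔE9-10 replicate 1 (0.60, limma adjusted p = 0.0536) and without BcorΔE9-10 replicate 2 (0.61, limma adjusted p = 0.0511). Without BcorWT replicate 1 the log2 fold change was 0.97.

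Zfp36l1 (ENSMUSG00000021127, chr12:80107754-80113013, minus strand) had the highest ratio between groups and the lowest counts of the tested members. The study singled it out from these libraries as well. It was counted 41, 26 and 38 times with the deletion and 11 and 7 times in controls, or 4.85, 4.24 and 4.44 against 1.56 and 1.04 CPM. Every BcorΔE9-10 library was thus at least 2.72 times above both BcorWT libraries. The means were 4.51 ± 0.307 CPM (SD, n = 3) and 1.30 ± 0.371 CPM (SD, n = 2), and the log2 fold change was 1.76 (SE 0.55, 95% interval 0.61 to 2.92). With a limma adjusted p of 0.0503 it fell just outside the threshold. The quasi-likelihood test of edgeR gave 1.78 with an adjusted p of 0.0252, and the Wald test of DESeq2 gave 1.78 with an adjusted p of 0.0294, both inside it. Over the fits that left out 1 library the log2 fold change lay between 1.49 and 2.04. At 7 to 41 counts, each value carries a large counting error.

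Zfp36l2 (ENSMUSG00000045817, chr17:84183931-84187947, minus strand) was the member with the smallest difference. Counts of 1710, 1295 and 1682 with the deletion stood against 1035 and 1205 in controls. In CPM the values were 202, 211 and 197 against 147 and 179, again with no overlap between the groups. The means were 203 ± 7.45 CPM (SD, n = 3) and 163 ± 22.3 CPM (SD, n = 2). The log2 fold change of 0.33 (SE 0.12, 95% interval 0.08 to 0.58) did not pass the threshold (limma adjusted p = 0.0909). It was 0.47 and inside the threshold without BcorWT replicate 2 (limma adjusted p = 0.0364), and 0.18 without BcorWT replicate 1 (limma adjusted p = 0.500). The control libraries were therefore ordered in opposite ways for this gene and for Zfp36: BcorWT replicate 2 had the lowest Zfp36 level of all libraries and the higher Zfp36l2 level of both controls.

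Zfp36l3 (ENSMUSG00000059334, chrX:53774048-53776394, minus strand) had 0 counts in all 5 libraries. A count of 0 allows up to 3 counts, which corresponds to 0.351 to 0.490 CPM in these libraries. The processed pseudogene Zfp36l1-ps, also on chromosome X, had 0 counts in every library. The antisense gene Gm44710 at Zfp36 and the long noncoding RNA Gm26669 at Zfp36l1, which lie on the opposite strand, had 0 counts as well. Their exons overlap those of the member, and the span of Gm26669 (chr12:80108034-80113000) covers nearly all of that of Zfp36l1. As the counting options are not known, reads that fell on both genes may have been given to neither. These counts of 0 therefore do not show that antisense reads were absent, and counts of Zfp36 and Zfp36l1 may be too low. The antisense gene AC132455.1, which overlaps Zfp36l2, was not a row of the table, so its reads cannot be told apart from those of Zfp36l2 unless strand was used in counting.

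These counts are to be read against all genes. Of the 11766 genes tested, limma called 10.1% at an adjusted p under 0.05, with 6.02% higher and 4.09% lower in BcorΔE9-10 cells. The calls in the higher direction made up 7.05% of genes with edgeR and 6.39% with DESeq2. All 3 tested members had every BcorΔE9-10 library above both BcorWT libraries in CPM, as did 22.6% of all genes tested. The fold changes of Zfp36, Zfp36l1 and Zfp36l2 exceeded those of 86.3%, 97.3% and 74.6% of genes.

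**Figure D1:**
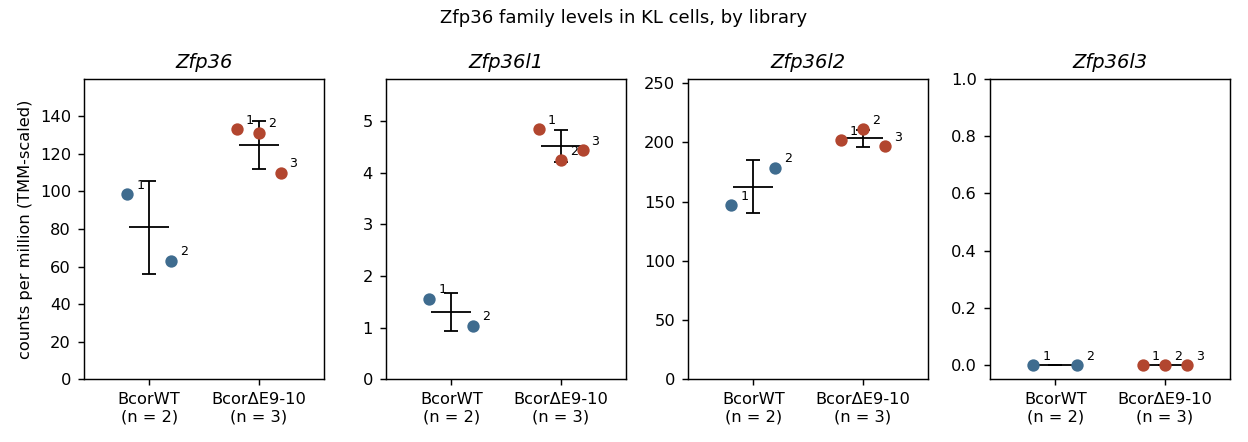
Levels of the 4 family members in CPM (vertical axes, each on its own scale from 0; the Zfp36l3 axis starts just below 0) in BcorWT (blue, n = 2) and BcorΔE9-10 (red, n = 3) libraries. Points are libraries numbered by replicate and bars are the mean ± SD; for Zfp36, Zfp36l1 and Zfp36l2 each red point lies above both blue points, and Zfp36l3 is at 0 throughout.

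The effect of the analysis settings differed between the members. Zfp36 kept its call with edgeR (log2 fold change 0.62, adjusted p = 0.0259) and with DESeq2 (0.61, adjusted p = 0.00997). When libraries were scaled by total counts alone, the median over all tested genes moved from 0.00 to 0.15, and the values of the 3 members became 0.79, 1.91 and 0.47, each past the threshold. Relative to that median, the differences remained close to those reported above. Fold changes also went with base composition. Over 10033 genes, taken as a description since genes are not replicates, Spearman's rho between fold change and GC content of the last 300 transcript bases was -0.35. The ends of Zfp36, Zfp36l1 and Zfp36l2 held 34.7%, 34.3% and 36.3% GC, against a median of 42.0%, and only 20.5%, 19.3% and 26.7% of genes had ends with less. After this trend was removed from each library, the log2 fold changes were 0.49, 1.59 and 0.21, and none of the 3 was past the threshold (limma adjusted p = 0.0851, 0.0834 and 0.288).

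**Figure D2:**
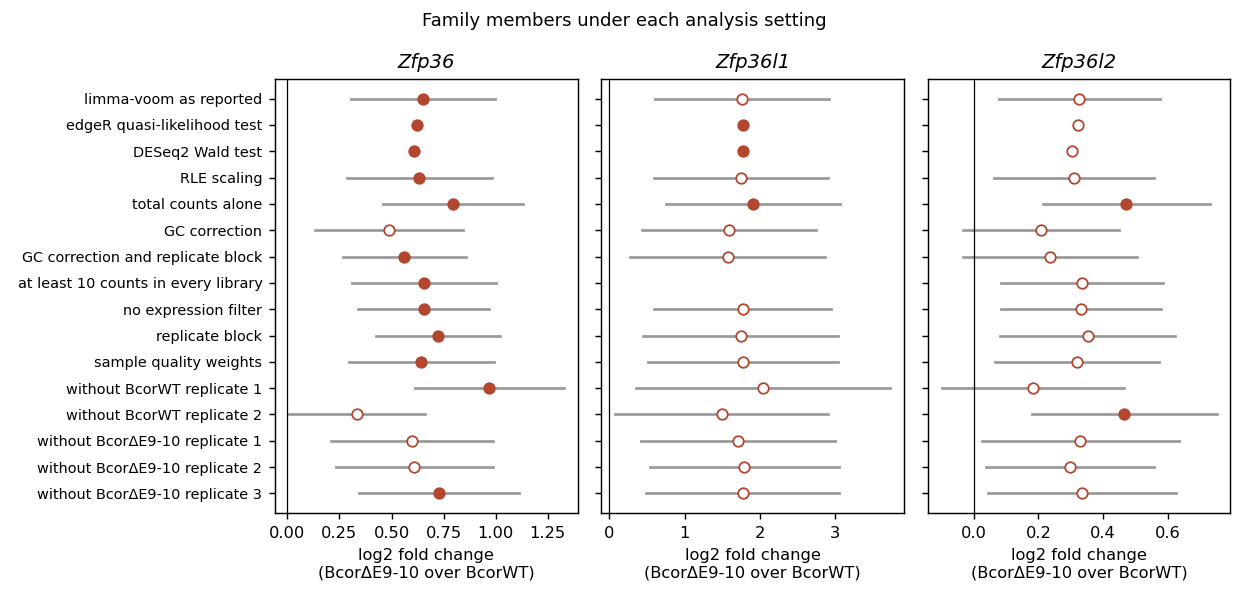
Log2 fold change of BcorΔE9-10 over BcorWT (horizontal axis, a different scale in each panel) for the 3 tested members under each analysis setting (vertical axis). Filled points have an adjusted p under 0.05, open points do not, and grey lines are 95% intervals where the tool gave them; Zfp36 ranges from 0.33 to 0.97 and Zfp36l1 was not tested where 10 counts were required in every library.

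The balance between the members was compared within libraries, as shares and ratios, which removes the effect of scaling. The summed CPM of the family still depends on scaling. In total the family took 310.9 to 347 CPM in BcorΔE9-10 libraries and 243 to 247 CPM in BcorWT libraries, with means of 333 ± 19.0 (SD, n = 3) and 245 ± 3.00 (SD, n = 2). Zfp36 made up 39.1%, 37.8% and 35.3% of the family's counts in the BcorΔE9-10 libraries. In the BcorWT libraries its share was 39.9% (95% Wilson interval 37.6 to 42.2) and 26.0% (23.9 to 28.2), so the controls differed by more than counting error and enclosed the BcorΔE9-10 values. Zfp36l1 made up 1.22% to 1.43% of family counts in BcorΔE9-10 libraries. In the BcorWT libraries its share was 0.633% (95% Wilson interval 0.354 to 1.13) and 0.427% (0.207 to 0.880).

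As log2 ratios, Zfp36 to Zfp36l2 was -0.60, -0.69 and -0.84 in BcorΔE9-10 libraries and -0.58 and -1.50 in BcorWT libraries, a difference of means of 0.33 (exact two-sided permutation test over libraries, p = 0.6). The groups overlapped, and without BcorWT replicate 2 the difference was -0.13. Zfp36l1 to Zfp36l2 was -5.50 ± 0.13 (SD, n = 3) against -6.99 ± 0.62 (SD, n = 2), a difference of 1.50 by exact permutation p = 0.1. Zfp36l1 to Zfp36 was -4.79 ± 0.16 against -5.95 ± 0.04, a difference of 1.17 with exact permutation p = 0.1. With 10 arrangements of the libraries, 0.1 is the smallest p that can be reached, and after adjustment over the 3 ratios the values were 0.6, 0.15 and 0.15. In both ratios that involve Zfp36l1, every BcorΔE9-10 library was above both BcorWT libraries.

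Genes that act with the family, regulate it, are its described targets or share its immediate-early class were taken from 7 lists of 216 distinct genes, of which 185 were tested, 18 called higher and 8 called lower. Most enzymes and cofactors of mRNA decay were not called. Over deadenylation, decapping and the exosome together, 7 of 60 tested genes were called higher (11.7%) and 1 lower, beside 6.02% and 4.09% of all genes, and the median log2 fold change was 0.00, as it was for all genes. Exons of Cnot1, Tob2, Lsm14a, Elavl1, Khsrp, Csf2, Notch1 and Hspa1a overlap those of annotated genes on the other strand. So do those of Zfp36, Zfp36l1 and Zfp36l2, and exons of Tia1 overlap those of a gene on the same strand. The counts of all these genes may hold reads of both genes, or lack reads that fell on both.

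Deadenylation is the first step, and Zfp36 proteins start it by binding the scaffold Cnot1 of the CCR4-NOT complex. Cnot1 was at 64.8, 62.5 and 71.4 CPM in BcorΔE9-10 libraries and at 65.0 and 76.5 CPM in BcorWT libraries. The groups overlapped, with a log2 fold change of -0.09 (95% interval -0.38 to 0.20, limma adjusted p = 0.736). Of 24 tested genes of the list, 2 were called higher and 0 lower by limma (8.33%, beside 10.1% of all genes). At an unadjusted p under 0.05, 2 were lower, 1 was called lower by each of edgeR and DESeq2, and the median log2 fold change was 0.10. Tut4, which adds uridines to shortened tails, was at 13.8, 18.4 and 16.4 CPM against 6.96 and 6.37 CPM (log2 fold change 1.25, SE 0.27, limma adjusted p = 0.00828). Tob2, which links the deadenylase to poly(A)-binding protein, was at 41.8, 53.2 and 45.0 CPM against 31.5 and 31.9 CPM (log2 fold change 0.54, SE 0.16, limma adjusted p = 0.0443). Neither call was kept after GC correction, where the log2 fold change was 0.83 for Tut4 (limma adjusted p = 0.0664) and 0.51 for Tob2 (limma adjusted p = 0.0611). The Tut4 call was lost without BcorWT replicate 1, and that of Tob2 without either BcorWT replicate or BcorΔE9-10 replicate 2 or 3, with log2 fold changes of 1.16 to 1.36 and 0.45 to 0.62. Btg2, a partner of the deadenylase that is also an immediate-early gene, was at 43.7, 44.7 and 36.7 CPM against 81.2 and 47.1 CPM and did not pass (log2 fold change -0.58, 95% interval -0.99 to -0.18, limma adjusted p = 0.0662). It was called lower by edgeR (adjusted p = 0.0489) and DESeq2 (adjusted p = 0.0323), and its log2 fold change was -0.19 without BcorWT replicate 1 and -0.97, with a call, without BcorWT replicate 2.

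Decapping and 5′ decay follow. Of 21 tested genes, 3 were called higher and 1 lower (19%, beside 10.1% of all genes). Lsm5, a subunit of the ring that binds shortened tails, was at 52.0, 64.8 and 44.1 CPM against 16.8 and 27.7 CPM (log2 fold change 1.28, SE 0.22, limma adjusted p = 0.00177), and its call was kept in each fit that left out 1 library. The other subunits of the ring were not called and went both ways. Their log2 fold changes were 0.32 (Lsm1), -0.45 (Lsm2), 1.00 (Lsm3), 0.08 (Lsm4), -0.34 (Lsm6) and -0.25 (Lsm7). Dcp1a, the activator of the decapping enzyme, was at 12.6, 16.6 and 16.8 CPM against 6.96 and 6.37 CPM, a difference of 1.17 on the log2 scale (limma adjusted p = 0.0136). Lsm14a, a component of P-bodies, was called higher at 82.3, 76.4 and 82.3 against 51.5 and 60.5 CPM (log2 fold change 0.53, limma adjusted p = 0.0211). Eif4e2, a cap-binding protein that represses translation and is brought to mRNAs by Zfp36 through Gigyf2, fell by 0.60 on the log2 scale (limma adjusted p = 0.0267), from 40.3 and 47.4 CPM to 31.8, 25.5 and 29.0 CPM. The Dcp1a call was lost without BcorΔE9-10 replicate 3 or either BcorWT replicate (log2 fold change 1.07 to 1.32). That of Lsm14a was lost without BcorΔE9-10 replicate 1 or 3 or BcorWT replicate 1 (0.41 to 0.64) and after GC correction (0.42, limma adjusted p = 0.0631). That of Eif4e2 was lost without BcorΔE9-10 replicate 2 or 3 or BcorWT replicate 2 (-0.72 to -0.48) and with total counts alone (-0.45, limma adjusted p = 0.0947).

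The exosome degrades mRNAs from the 3′ end. Of 15 tested genes, 2 were called higher and 0 lower by limma (13.3%, beside 10.1% of all genes). At an unadjusted p under 0.05, 0 were lower, and 0 were called lower by edgeR or DESeq2, while the median log2 fold change was -0.13. Skiv2l, the helicase that feeds mRNAs to the exosome, was at 28.1, 41.0 and 35.9 CPM against 3.41 and 7.11 CPM, a log2 difference of 2.79 ± 0.35 (SE; limma adjusted p = 0.000129) that was called in each fit without 1 library. Exons of Skiv2l overlap those of Dxo on the other strand, and since the strand setting is not stated in the sources used here, reads of both may be held in its count. Exosc3, a subunit of the exosome cap, was at 6.74, 8.65 and 10.4 CPM against 2.98 and 3.70 CPM (log2 fold change 1.33, limma adjusted p = 0.0377). Its call was lost after GC correction (1.04, limma adjusted p = 0.103), without BcorΔE9-10 replicate 2 or 3 and without either BcorWT replicate (1.14 to 1.51), and its exons overlap those of Dcaf10 on the other strand.

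Other RNA-binding proteins compete with the family for AU-rich elements or act beside it. Of 38 tested genes, 1 was called higher and 1 lower (5.26%, beside 10.1% of all genes), and the median log2 fold change was 0.21. Elavl1 (HuR), which stabilises many of the mRNAs that Zfp36 destabilises, was at 109.7, 115 and 119 CPM against 105 and 154 CPM, with overlapping groups (log2 fold change -0.15, 95% interval -0.46 to 0.15, limma adjusted p = 0.549). Khsrp, another decay-promoting protein, was at 33.1, 46.3 and 32.8 CPM against 24.6 and 51.0 CPM (log2 fold change 0.05, 95% interval -0.46 to 0.56, limma adjusted p = 0.929). Tia1, which silences translation from AU-rich mRNAs, was called higher at 24.2, 31.8 and 28.4 against 16.3 and 19.1 CPM (log2 fold change 0.65, limma adjusted p = 0.0467). Arid5a, which stabilises inflammatory mRNAs, was called lower at 45.1, 49.4 and 38.0 against 64.0 and 65.2 CPM (log2 fold change -0.57, limma adjusted p = 0.0215). Neither call was kept without BcorΔE9-10 replicate 3 or without either BcorWT replicate, nor that of Tia1 without BcorΔE9-10 replicate 2 (log2 fold changes from 0.53 to 0.76 for Tia1 and from -0.64 to -0.47 for Arid5a), and Tia1 lost its call after GC correction too (0.54, limma adjusted p = 0.0989). Scaling by total counts alone ended the call of Arid5a (-0.42, limma adjusted p = 0.0775).

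The kinases and phosphatases that set the activity of Zfp36 proteins included 2 genes called higher and 2 called lower among 28 tested (14.3%, beside 10.1% of all genes), with a median log2 fold change of -0.06. Mapkapk2, the kinase that inactivates Zfp36, was at 302, 307 and 309 CPM against 335 and 340.1 CPM. Although these groups did not overlap, the difference was small (log2 fold change -0.14, 95% interval -0.35 to 0.07, limma adjusted p = 0.387), and it was 0.00 when libraries were scaled by total counts alone. Dusp1, the phosphatase that switches off Mapk14 signalling, was at 248, 159 and 122 CPM against 158 and 74.5 CPM (log2 fold change 0.64, 95% interval 0.07 to 1.20, limma adjusted p = 0.146), with overlapping groups. Its log2 fold change was 0.10 without BcorWT replicate 2 and 1.18, with a call (limma adjusted p = 0.0188), without BcorWT replicate 1. Ppp2cb, a catalytic subunit of the phosphatase that reactivates Zfp36, was at 10.9, 21.4 and 16.6 CPM against 0.852 and 0.889 CPM, a log2 difference of 4.03 ± 0.75 (SE; limma adjusted p = 0.00287). Tab2, an adaptor of the kinase upstream of Mapk14, was also called higher (log2 fold change 0.68, limma adjusted p = 0.0157). Mapk3 (Erk1) fell by 0.57 on the log2 scale (limma adjusted p = 0.00204), at 470.2, 401 and 461 against 649.7 and 668 CPM, and Prkaca, the catalytic subunit of protein kinase A, fell by 0.52 (limma adjusted p = 0.0220). The calls of Ppp2cb and Mapk3 were kept in each fit without 1 library. Those of Tab2 and Prkaca were lost without BcorΔE9-10 replicate 3 and, respectively, BcorWT replicate 1 and BcorWT replicate 2 (0.42 to 0.93 and -0.64 to -0.41), and that of Tab2 also after GC correction (0.52, limma adjusted p = 0.0574) and that of Prkaca with total counts alone (-0.38, limma adjusted p = 0.0886).

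The median fold change of described targets was 0.28 on the log2 scale and 0.15 after GC correction, with 5 of 43 tested genes called higher and 1 called lower out of 55 listed. Of all genes tested, 6.02% were called higher and 4.09% lower. Tnf, a cytokine mRNA and the classical target of Zfp36, was at 17.7, 16.5 and 18.4 CPM in BcorΔE9-10 libraries and at 28.5 and 20.2 CPM in BcorWT libraries, with no overlap but no call (log2 fold change -0.45, 95% interval -0.87 to -0.03, limma adjusted p = 0.168). Without BcorWT replicate 2 it was called (-0.70, limma adjusted p = 0.0473). Csf2 (GM-CSF), whose 3′ UTR holds 9 heptamers, had 0 counts in all 5 libraries. Ier3, another target that is induced early, was at 53.3, 50.3 and 57.2 CPM against 86.2 and 51.7 CPM (log2 fold change -0.32, 95% interval -0.70 to 0.06, limma adjusted p = 0.284), and it too was called without BcorWT replicate 2 (-0.68, limma adjusted p = 0.00892). Mcl1, which protects myeloid cells from apoptosis, was at 201, 175 and 178 CPM against 193 and 172 CPM (log2 fold change 0.02, 95% interval -0.22 to 0.26, limma adjusted p = 0.937).

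The targets that were called higher were regulators of growth, signalling and cell death, and Fos, which is described with the immediate-early genes. Fos, Myc, Tnfaip3 and Notch1 were among the genes that the study picked from these same libraries, so their calls are not independent evidence. Myc, the growth-promoting transcription factor, was at 13.4, 16.0 and 9.47 CPM against 2.27 and 2.82 CPM (log2 fold change 2.26, SE 0.45, limma adjusted p = 0.00401). Tnfaip3 (A20), an inhibitor of NF-κB signalling, was at 7.56, 8.97 and 6.78 CPM against 1.28 and 2.07 CPM, a difference of 2.18 on the log2 scale (limma adjusted p = 0.0107). Bcl2l11 (Bim), which promotes apoptosis, was at 13.5, 11.6 and 12.6 CPM against 5.11 and 5.63 CPM (log2 fold change 1.22, limma adjusted p = 0.0135). Notch1, a target of Zfp36l1 and Zfp36l2 in thymocytes, was at 22.8, 23.8 and 25.1 CPM against 12.6 and 15.4 CPM (log2 fold change 0.78, limma adjusted p = 0.0227). Ccnd3, a cyclin of the G1 phase, was called lower at 877, 851 and 799.7 against 1169 and 1340.4 CPM (log2 fold change -0.57, limma adjusted p = 0.00117), and its exons overlap those of Bysl on the other strand. No heptamer lay in the 3′ UTRs searched for Myc and Ccnd3, whereas Fos, Tnfaip3 and Bcl2l11 had 2 each and Notch1 had 4. The calls of Myc and Ccnd3 were kept in each fit without 1 library. Those of Tnfaip3 and Bcl2l11 were lost without BcorWT replicate 1, and that of Notch1 without BcorWT replicate 1 or BcorΔE9-10 replicate 3 (log2 fold changes from 1.83 to 2.51, from 1.15 to 1.29 and from 0.63 to 0.92).

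**Figure D3:**
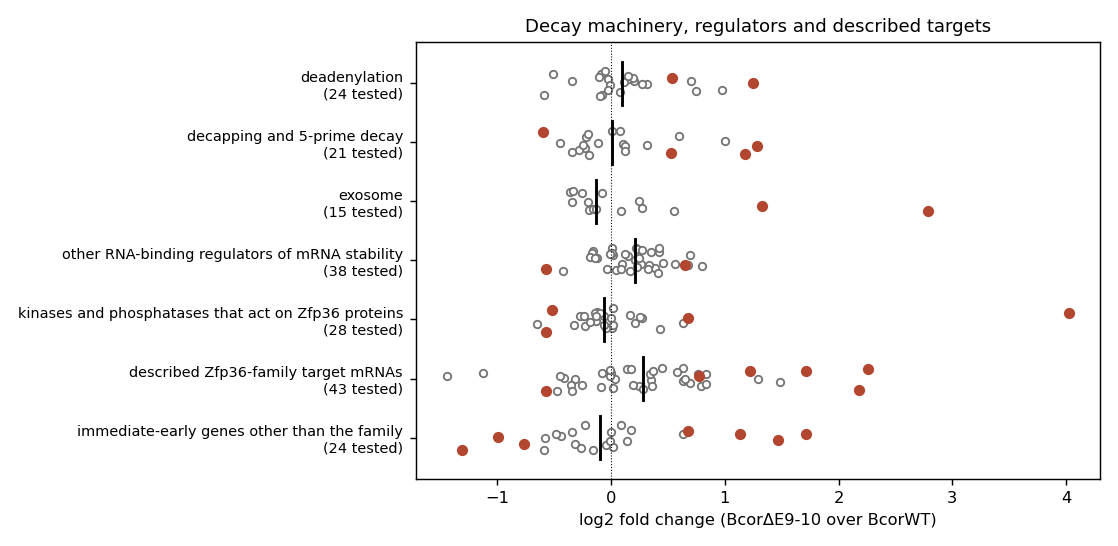
Log2 fold change of BcorΔE9-10 over BcorWT (horizontal axis) for the tested genes of each list (vertical axis, with the number tested; vertical scatter within a list has no meaning). Red points passed a limma adjusted p of 0.05, open points did not, and black bars are list medians, which run from -0.13 for the exosome to 0.28 for described targets (0.15 after GC correction, which is not plotted).

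Zfp36 belongs to the immediate-early genes, which are switched on within minutes by stress or growth factors, so the others of this class were set beside it. Of 24 tested genes, 4 were called higher and 3 lower (29.2%, beside 10.1% of all genes). Those called higher were transcription factors, and Fos, Fosb and Nr4a1 were among the genes picked by the study from these libraries. Fos was at 334, 333 and 209 CPM in BcorΔE9-10 libraries and at 107 and 69.6 CPM in BcorWT libraries (log2 fold change 1.71, SE 0.20, limma adjusted p = 9.78e-05). Fosb was at 109.4, 81.6 and 53.3 CPM against 56.8 and 21.8 CPM, where BcorΔE9-10 replicate 3 lay below BcorWT replicate 1 (log2 fold change 1.14, limma adjusted p = 0.0312). Klf6 was at 120, 156 and 87.5 CPM against 88.8 and 59.4 CPM, again with overlap (log2 fold change 0.68, limma adjusted p = 0.0462), and was not called after GC correction (0.37, limma adjusted p = 0.287). Nr4a1 was at 10.3, 7.02 and 11.6 CPM against 2.70 and 4.45 CPM (log2 fold change 1.47, limma adjusted p = 0.0255).

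The 3 genes called lower encode heat-shock proteins. Hspa1b was at 108, 216 and 309 CPM against 657 and 344 CPM (log2 fold change -1.31, limma adjusted p = 0.0109). Hspa1a was at 118, 235 and 347 CPM against 585 and 302 CPM (log2 fold change -0.99, limma adjusted p = 0.0498), where BcorΔE9-10 replicate 3 lay above BcorWT replicate 2, and Dnajb1 was at 94.2, 96.8 and 111 CPM against 222 and 130.2 CPM (log2 fold change -0.76, limma adjusted p = 0.0107). All 3 were highest in BcorWT replicate 1, and none was called without it (log2 fold changes of -0.84, -0.52 and -0.38). Hspa1a and Hspa1b are near-identical copies, so that reads may have been split between them. The Fos call was kept in each fit without 1 library. Those of Fosb and Klf6 were lost without BcorWT replicate 2 and without BcorΔE9-10 replicate 1 or 2 (0.45 to 1.83 and 0.40 to 0.97), that of Nr4a1 without BcorWT replicate 1 or BcorΔE9-10 replicate 3 (1.10 to 1.81), and that of Hspa1a also without BcorΔE9-10 replicate 1 or 2. DESeq2 called none of Fosb, Klf6, Hspa1b and Hspa1a (adjusted p = 0.313, 0.258, 0.195 and 0.397), at log2 fold changes of 1.03, 0.69, -1.26 and -0.95. The quasi-likelihood test of edgeR did not call Hspa1a (-0.93, adjusted p = 0.0672). The Hspa1a call, close to the threshold as reported, was also lost with total counts alone, with quality weights and after GC correction (log2 fold changes of -0.86, -1.02 and -0.99, limma adjusted p = 0.0720, 0.0612 and 0.0531).

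Zfp36 and Fos put the libraries in the same order, from BcorΔE9-10 replicate 1 down to BcorWT replicate 2. Over the 5 libraries the log2 CPM of Zfp36 had a Pearson r of 0.97 with Fosb, 0.95 with Fos, 0.92 with Klf6 and 0.88 with Dusp1. An r of at least 0.9 was reached by 3 of the 24 immediate-early genes (12.5%) and by 391 of the other 11765 genes tested (3.32%). The likeness did not extend to the whole class: r was 0.69 for Egr1, -0.07 for Ier3 and -0.55 for Hspa1b, and it was negative for 9 of the 24. Egr1 encodes a factor known to bind Egr sites such as the one shown above, and its log2 fold change was 0.15 (limma adjusted p = 0.786). These values describe 5 libraries of 2 genotypes that share their scaling.

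**Figure D4:**
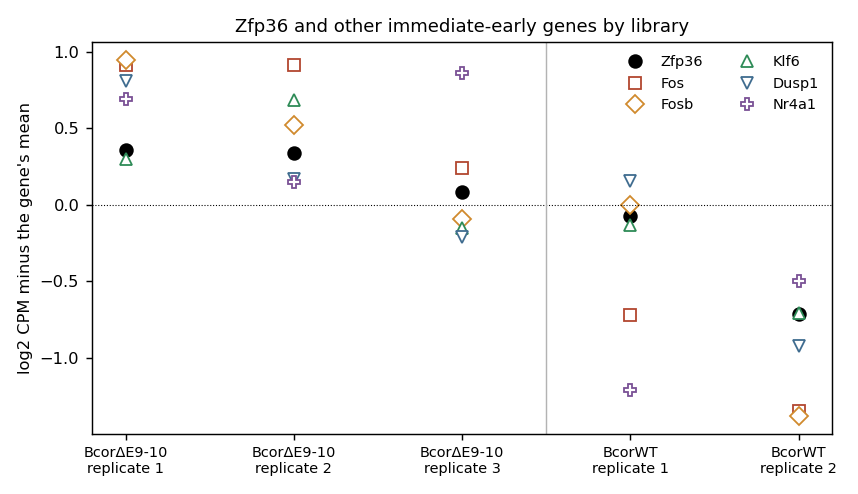
Log2 CPM of Zfp36 (filled circles) and of the immediate-early genes Fos, Fosb, Klf6, Dusp1 and Nr4a1 (open symbols) in each library, as the difference from the gene's mean over the 5 libraries (vertical axis). Zfp36, Fos, Fosb, Klf6 and Dusp1 are lowest in BcorWT replicate 2, whereas Nr4a1 is lowest in BcorWT replicate 1.

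Among genes whose log2 CPM averaged 5 or more, the pattern of Zfp36 over the 5 libraries was most like that of Snord13, Hist1h2af, Ube2e1, Malat1 and Ube2a (Pearson r 0.99 to 1.00, of 3269 genes). Zfp36l1 was most like Bcl10, H2afy, Mtf2, Myb and Gna13 (r 0.99 to 1.00), and Zfp36l2 was most like Spcs2, Cab39, Glyr1, Psma1 and Pabpc1 (r 0.99 to 1.00). An r of at least 0.95 was reached by 26, 54 and 157 genes. Between the members, r was 0.91 for Zfp36 with Zfp36l1, 0.74 for Zfp36l1 with Zfp36l2 and 0.49 for Zfp36 with Zfp36l2.

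The mRNAs that could be bound by the family were described by the heptamer. The 2999 genes with a heptamer in the 3′ UTR had a median log2 fold change of 0.07, and the 7034 without had -0.05. Among genes with 3 or more heptamers the median was 0.13. Of genes with a heptamer, 6.67% were called higher and 3.37% lower, against 4.89% and 5.03% of genes without. After GC correction these shares were 4.0% and 4.33% with a heptamer and 3.67% and 4.24% without. The transcript ends of these classes differed in composition, with a median GC content of 38.0% with a heptamer and 44.0% without, and in 3′ UTR length, with medians of 2174 and 858 bases. In the lowest of 5 bins of GC content (15.3% to 34.3%) the medians were 0.28 with a heptamer and 0.24 without. In the next bin they were 0.07 and 0.08, and in the highest (50.3% to 69.7%) -0.12 and -0.20. After the GC trend was removed, the medians over all bins were -0.02 and -0.06. The 37 tested targets with a heptamer had a median of 0.25, or 0.11 after GC correction, and the 6 without had 0.66 and 0.72. The part of 3′ UTR length in these medians was not tested.

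**Figure D5:**
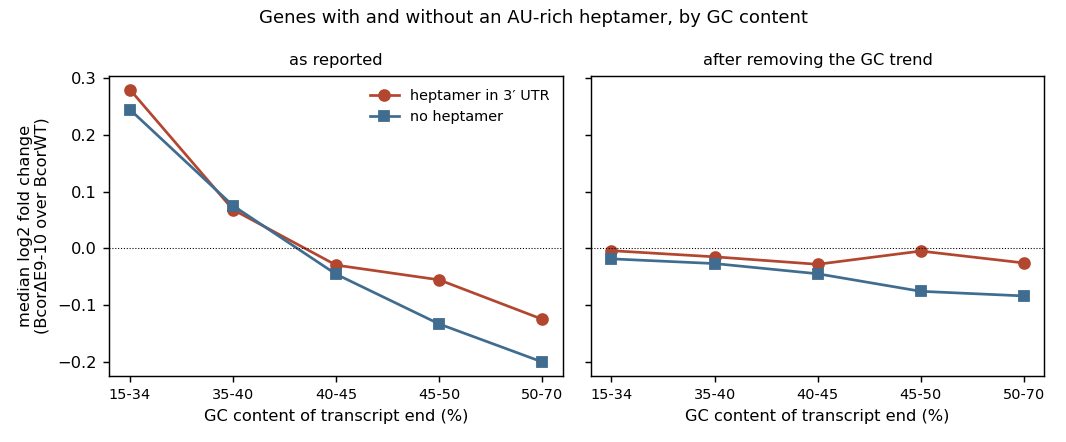
Median log2 fold change of BcorΔE9-10 over BcorWT (vertical axis) for genes with (red circles) and without (blue squares) a UAUUUAU heptamer in the 3′ UTR, in 5 bins of GC content of the last 300 transcript bases (horizontal axis, percent). As reported (left), both classes fall from 0.28 and 0.24 in the lowest bin to -0.12 and -0.20 in the highest, and after removal of the GC trend (right) all medians lie between -0.08 and 0.00.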

How the data were processed

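KL cells were profiled by QuantSeq 3′ sequencing in 5 libraries. The authors removed low-quality reads, trimmed them with cutadapt, used HISAT2 to align them to mm10 and featureCounts to assign them to genes. What was deposited is a table of raw counts, with options for strand and multimapping not given in the sources used here. Groups were taken from the sample titles. Gene symbols and 3′ UTRs came from GENCODE M21 on the same build, and 52403 of 52550 genes had a symbol. Genes were filtered with filterByExpr (minimum count 10, minimum total 15), scaled by TMM and tested for genotype with limma-voom (limma 3.58.1, edgeR 4.0.16, R 4.3.3), two-sided, with Benjamini-Hochberg adjustment over the 11766 genes tested. CPM are counts per 1000000 counts of the tested genes after TMM scaling. Total counts were 5998924 to 8303999, and intervals and limits for a count of 0 cover counting error only, as reads carried no molecular identifier. No pair of libraries of one genotype agreed within counting error (chi-square of 5.96 to 11.3 per gene). Nothing in the labels says that libraries came from separate mice, so p-values measure the spread between these libraries.

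Alternatives were edgeR's quasi-likelihood test, DESeq2 1.42.0, other scalings and filters, quality weights, a replicate block, removal of each library's trend on GC content (lowess span 0.3) and leaving out each library on the same gene set. With 1 BcorWT library left, that library was assumed to vary like the others. The family, the 7 lists and the tests were chosen with earlier results of these data known. Named were all members, from each list at most 4 called genes by size of fold change whose log2 CPM averaged 1 or more, the fixed genes Tnf, Csf2, Ier3, Mcl1, Btg2, Dusp1, Mapkapk2, Cnot1, Elavl1 and Khsrp, and the 5 most similar genes per member. Egr1, the cell type markers with values and, beyond 4 per list, Notch1, Ccnd3, Klf6, Hspa1a and Dnajb1 were named after their values were seen. So were Ppp2ca, Ppp2r1a, Ppp2r1b and the Lsm genes set beside Lsm5.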

Additional observations from a re-analysis of the deposited data

How the results depend on the processing

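The positive direction of Zfp36, Zfp36l1 and Zfp36l2 was kept under each alternative run. Zfp36 lost its call after GC correction (0.49), and over the fits without 1 library its log2 fold change ranged from 0.33 to 0.97. Zfp36l1 gained a call with edgeR (1.78), DESeq2 (1.78) and total counts alone (1.91) and had no value where 10 counts were required in every library. Zfp36l2 gained one with total counts alone (0.47) and ranged from 0.18 to 0.47 without 1 library. Calls over all genes numbered 1189 and ranged from 484 to 1141 without 1 library, the lowest without BcorWT replicate 1. With total counts alone they were split 1210 higher to 197 lower, against 708 to 481, as the median of all genes moved by 0.14.

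The labels give both groups the replicate numbers 1 and 2. Same-numbered libraries hardly deviated together (correlations 0.057 and 0.067 over genes), so the numbers were not taken to pair them. With a replicate block the members' log2 fold changes were 0.72, 1.74 and 0.35, Zfp36 alone of the 3 was called, and 1454 genes were called in all. With the block and GC correction together they were 0.56, 1.57 and 0.24, and again Zfp36 alone was called (limma adjusted p = 0.00378). Of the other genes named, Arid5a (-0.45) and Exosc3 (1.18) lost their calls with the block, and Btg2 (-0.53) and Dusp1 (0.85) gained one. Under the block the lists held 4 calls (deadenylation), 1 (exosome), 10 (targets) and 12 (immediate-early), and with the block and GC correction 1 (exosome), 0 (other RNA-binding proteins, with 4 higher and 5 lower at an unadjusted p under 0.05 in limma) and 12 (immediate-early).

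Deadenylation calls, 2 as reported, were 4 with edgeR, 1 with RLE scaling, 6 with total counts, 1 with quality weights, 0 after GC correction (limma; 4 higher and 2 lower at an unadjusted p under 0.05) and 1 to 2 without 1 library. Decapping calls, 4 as reported, were 7 with DESeq2 and 2 to 3 without 1 library. Exosome calls, 2 as reported, were 1 with quality weights, 1 after GC correction and 1 to 2 without 1 library. Calls among other RNA-binding proteins, 2 as reported, were 1 with RLE scaling, 6 with total counts, 1 with quality weights, 1 after GC correction and 0 to 2 without 1 library (0 without BcorΔE9-10 replicate 3 in limma, with 7 higher and 2 lower at an unadjusted p under 0.05). Kinase and phosphatase calls, 4 as reported, were 2 to 4 without 1 library. Target calls, 6 as reported, were 10 with total counts and 4 to 11 without 1 library. Immediate-early calls, 7 as reported, were 4 to 11 without 1 library. The cause of these shifts was not tested.

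The log2 ratio of Zfp36 to Zfp36l2 differed by 0.33 between groups, ranged from -0.13 to 0.79 without 1 library and reversed to -0.13 without BcorWT replicate 2. The median of heptamer genes, 0.069, was -0.015 after GC correction, 0.21 with total counts alone, 0.098 with 2 or more heptamers and 0.039 to 0.083 without 1 library. Among 523 repeats of 35 single genes, 417 kept direction and call, 83 lost the call and 12 gained one. The 11 that turned direction had no call as reported: Cnot1 (0.056 with total counts, -0.21 to 0.028 without 1 library), Khsrp (-0.018 with edgeR, -0.031 with DESeq2, -0.49 to 0.56 without 1 library), Mapkapk2 (0.0011 with total counts) and, without 1 library, Elavl1 (-0.43 to 0.12), Ier3 (-0.68 to 0.051) and Mcl1 (-0.061 to 0.099).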
